A study of Mus musculus with 3 samples.

Results

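Kidney monocytes were taken as the cells that the authors' own cluster column names Monocyte, which gave 714 of 20266 immune cells. They came from the kidneys of untreated wild-type mice, which per the study's methods were male C57BL/6J animals of 10 weeks. Kidneys were macro-dissected into a cortical, an outer medullary (OM) and an inner medullary (IM) piece and digested with enzymes. Live cells with CD45, a surface mark of immune cells, were sorted and profiled by droplet single-cell RNA sequencing. This method counts tagged mRNA molecules (unique molecular identifiers, UMIs) per gene and cell. The 3 compartments were prepared at 3 facilities (Aachen, Bonn and Hamburg), and the compartment and facility of each cell were read from the table. The cells of 1 compartment at 1 facility are called a library here, which gives 9. Whether each was made as a separate library is not stated in the labels. All Hamburg cells of the 3 compartments carry the same barcode suffix, which the sources used here do not explain. No treatment, gene deletion or disease distinguished the groups. The labels give 1 sample for each compartment. They do not say how many mice stand behind a library or whether the 3 compartments of a facility came from the same mice. The facility was therefore taken as the replicate. Gene tests set each facility's level aside, so their p-values rest on the spread left between libraries, shared in part across genes. Shares were compared by rearranging the compartments within facilities. No p-value here measures the spread between mice.

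Monocytes are blood-borne phagocytes that leave the bone marrow, circulate and enter tissues. Classical mouse monocytes carry Ly6C and the chemokine receptor CCR2 and are recruited to inflamed tissue, where they can become macrophages or dendritic cells. Nonclassical monocytes have low Ly6C and high CX3CR1, depend on the transcription factor Nr4a1 and patrol the inner wall of small vessels. In the kidney they stand beside long-lived resident macrophages, which make complement component C1q, and type 2 conventional dendritic cells (cDC2), which present antigen.

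The 282 cortical, 208 OM and 224 IM monocytes were spread unevenly over the libraries. Aachen held 28 in cortex, 29 in OM and 32 in IM. Bonn held 185, 25 and 90, and Hamburg 69, 154 and 102. Sequencing depth followed the facility: the median monocyte had 1454 to 2156 UMIs in the Aachen libraries, which were made with version 2 of the 10x kit, 4940 to 6068 in Bonn and 3827 to 4857 in Hamburg, both made with version 3. The level that 3 counts represent in a library's summed monocytes ranged from 2.79 CPM (UMIs of a gene per 1000000 UMIs) in Bonn cortex to 69.6 CPM in Aachen OM, so a gene listed at 0 in Aachen could not be told from a low level. All nonzero Aachen and Bonn values of monocytes were whole numbers, but 0.118% of the Hamburg ones were, for which the sources used here give no reason. Pairs of libraries shared 0 to 8 cell barcodes within a facility and 0 to 16 between facilities, and 21 monocyte barcodes occurred in more than 1 library. No doublet caller was run, and results were also computed without monocytes that held lymphocyte or C1q UMIs.

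Of the 4 markers given for monocytes, Plac8 and Ly6c2 were far above resident macrophages, Ccr2 was above them by less, and Fcgr4 was not above them. Levels here are CPM in the summed cells of a cluster, as mean ± SD over 9 libraries. Plac8, a small cysteine-rich protein of myeloid cells, was at 2098 ± 468 CPM, the highest mean of the 23 clusters. Ccr2 was also highest in monocytes, at 427 ± 180 CPM, with cDC1 at 366 and cDC2 at 295 next. It was 2.59 times the level of resident macrophages (165 ± 108 CPM), above them in 9 and above cDC2 in 8 of 9 libraries. Ly6c2, which encodes a Ly6C antigen, was at 887 ± 322 CPM and had rank 3 of the 23 clusters, behind plasmacytoid dendritic cells (2536 CPM, present in 3 libraries) and level with 1 T cell cluster (889 CPM). Fcgr4, an activating Fc receptor of nonclassical monocytes, was at 123 ± 65.3 CPM and had rank 7. Resident macrophages had 356 ± 98.3 CPM of it and were above monocytes in 9 of 9 libraries, so Fcgr4 separated monocytes from cDC2 (24.9 ± 13.6 CPM) and not from macrophages.

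**Figure D1:**
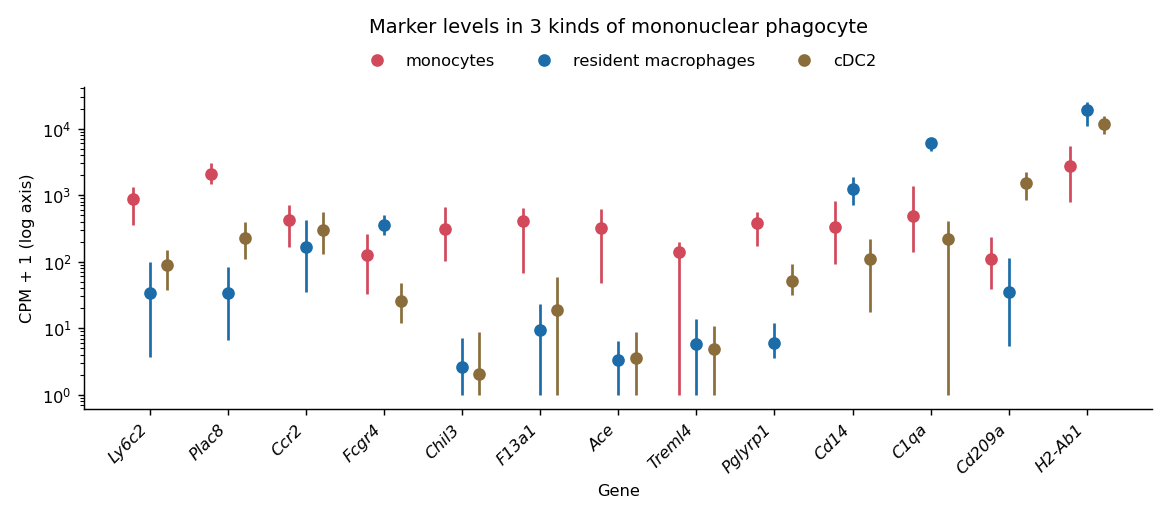
Levels of 13 genes (x axis) in the summed monocytes, resident macrophages and cDC2, as CPM + 1 on a log axis. Points are means over 9 libraries and lines run from the lowest to the highest library. Plac8, Chil3 and Ace stand apart in monocytes, while Fcgr4, Cd14 and C1qa are higher in resident macrophages.

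The clusters had been formed from the expression of these genes, so the differences between clusters are a description and carry no test. Of 2758 genes with at least 50 CPM in monocytes, 241 were above resident macrophages and cDC2 in every library, 117 of them by at least 2 times and 16 by at least 10 times. Chil3, a chitinase-like protein of classical monocytes, was at 306 ± 210 CPM against 1.59 in resident macrophages and 1.08 in cDC2. Ace, the angiotensin-converting enzyme, which nonclassical monocytes express, was at 316 ± 165 CPM against 2.29 and 2.61. Markers of both kinds of monocyte thus stood at the top of the list of 1 cluster.

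The other leading genes by ratio were the glutathione transferase Mgst1 (268 ± 47.5 CPM), haptoglobin (Hp, 344 ± 171), fibronectin (Fn1, 453 ± 299), the lectin receptor Clec4e (252 ± 194), coagulation factor XIII A (F13a1, 401 ± 237), glutathione reductase (Gsr, 335 ± 49.8), Ceacam1 (167 ± 82.0) and the protease inhibitor Slpi (122 ± 84.0). Below them came Cd300lb, Msrb1, Nupr1, Id1, Cebpb, Zfyve9, Ly6c2, Adgre4, Plac8 and Tmem38b. Mgst1 ranged from 189 to 319 CPM over the 9 libraries and Gsr from 252 to 406 CPM, while Fn1 ranged from 49.8 to 839. Cebpb, a transcription factor of myeloid differentiation, was the most abundant of the 20 at 3342 ± 1066 CPM. Lyz2, lysozyme, reached 21178 ± 3180 CPM against 6695 ± 4071 in resident macrophages and 1260 ± 707 in cDC2.

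Antigen-presentation and resident macrophage genes were low. The 8 MHC class II genes summed to a median of 191 UMIs per 10000 in monocytes (84.7 to 297 over libraries), against 1362 in resident macrophages and 809 in cDC2, with no overlap between the libraries of the 3 classes. C1qa was at 483 ± 377 CPM against 6109 ± 1034 in resident macrophages, and Cd209a, a lectin of cDC2, at 108 ± 78.2 against 1503 ± 478. After each cell was thinned to 500 UMIs, 7.61% of monocytes held a C1qa UMI, against 93.2% of resident macrophages and 2.54% of T and B cells, which should lack it. Before thinning the share was 14.6% of monocytes. The median depth before thinning was 4105 UMIs in these monocytes, 1678 in macrophages and 2593 in T and B cells.

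Lists of other cell types were low, though not absent, in the monocyte libraries. The 8 T cell genes summed to 0.314 to 2.56 UMIs per 10000, the 6 B cell genes to 0.696 to 7.77, the 9 neutrophil genes to 1.26 to 7.66 and the 4 platelet genes to 0 to 0.519. The B cell sum was highest in Bonn IM and ran from 13.04 to 71.3 in T and B cells, and 511 of the 714 monocytes held under 2 UMIs of the lymphocyte lists. The 4 NK cell genes summed to 0 to 0.651 and the 10 kidney tubule genes to 0.0712 to 4.41, highest in Aachen OM. The 4 erythroid genes were at 0 in all libraries. Across 7183 genes the cluster whose mean profile ranked most like monocytes was cDC2 (Spearman's rho 0.887), followed by the Macrophage_2 cluster (0.850), a description over genes that share libraries and depth.

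Within the cluster, the classical and nonclassical programmes ran against each other from cell to cell. A list of 13 classical genes (among them Ly6c2, Ccr2, Chil3, F13a1, Fn1 and Hp) and a list of 15 nonclassical genes (among them Ace, Treml4, Spn, Nr4a1, Pglyrp1, Itgal and Fcgr4) were summed per cell as UMIs per 10000. Over cells their Spearman correlation was -0.38 in Aachen (89 cells), -0.79 in Bonn (300) and -0.66 in Hamburg (325). Both sums share each cell's total, and thinning to 500 UMIs brought the values to -0.16, -0.58 and -0.52.

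**Figure D2:**
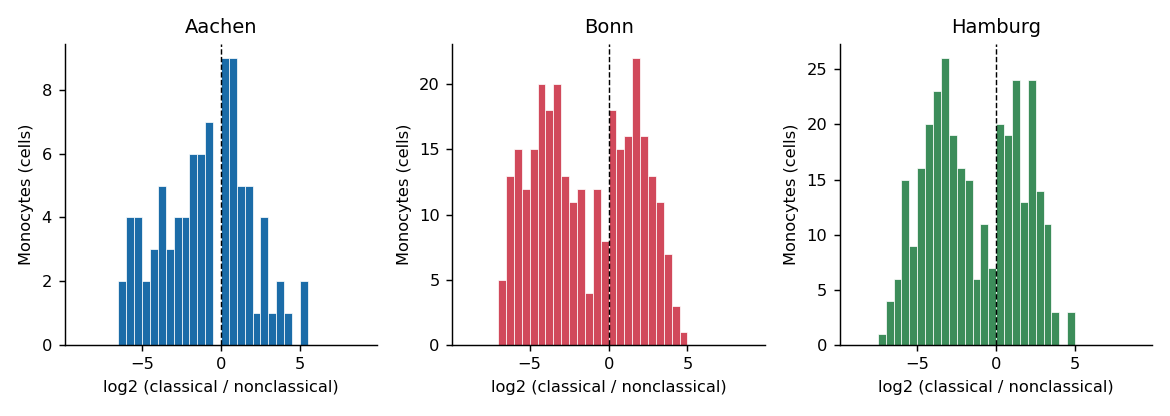
Number of monocytes (y axis) by the log2 ratio of classical to nonclassical list sums per cell (x axis, pseudocount 2 UMIs per 10000), 1 panel per facility, with a dashed line at 0. Bonn and Hamburg show a peak on each side of 0, and the 89 shallower Aachen cells spread without a clear gap.

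The log2 ratio of both sums was above 0 in 281 of 714 monocytes (39.4%), below -2 in 328 and above 2 in 117. It lay within 1 of 0 in 135 cells, so a cut at 0, which was chosen after the values were seen, marks 2 ranges and not 2 cell types. The range above 0 is called the classical range and the rest the nonclassical range. Cells of the classical range were deeper, with a median of 6536 against 3181 UMIs, and this held in each facility (2204 against 1511 in Aachen, 6774 against 3925 in Bonn and 7358 against 3323 in Hamburg). The part of depth in the ranges was not tested.

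The genes that defined the ranges followed them by construction. Ly6c2 was at 1308, 2152 and 1946 CPM in the classical range of Aachen, Bonn and Hamburg and at 44.6, 176 and 107 in the nonclassical range. Ace was at 0, 75.2 and 49.8 CPM in the classical and at 245, 719 and 686 in the nonclassical range. Fcgr4, itself a member of the nonclassical list, was at 25.9, 26.3 and 22.1 CPM against 223, 206 and 174.

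Genes outside the lists also differed, again as a description. Of 2734 such genes with at least 50 CPM, 1267 differed in the same direction in 3 facilities. Of these, 80 leaned by at least 1 on the log2(CPM + 10) scale toward the classical range and 89 toward the nonclassical. The classical side was led by the interferon-induced Ifit3 (51.8 to 146 CPM against 0 to 8.27) and by Cxcl10, a chemokine for T cells and NK cells (64.5 to 361 against 0 to 75.1). With them were Isg15, an interferon-induced ubiquitin-like protein, at 142 to 377 CPM against 54.9 to 87.5, Ms4a4c, Slfn1, Slfn5, Oasl2, the actin-capping protein Capg and S100a10. Lyz2 was higher there as well, at 28816, 36563 and 26560 CPM against 13157, 14869 and 8996.

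The nonclassical side was led by Fabp4, a fatty acid binding protein, at 78.1, 163 and 394 CPM against 0, 1.19 and 6.70. Cd300e, a surface receptor of nonclassical monocytes, was at 22.3, 206 and 197 CPM against 0, 0 and 1.12. Cd9, Tgm2, G0s2, the iron regulator Hfe, the kinase Fyn, Stap1 and Bcl2a1b followed. Of the 8 MHC class II genes, H2-Aa, H2-Ab1, H2-Eb1, Cd74 and their activator Ciita were higher in this range in each facility, Cd74 at 16491, 14170 and 8152 CPM against 9726, 8026 and 5812. H2-DMa, which helps load peptides, was higher in the classical range in each, at 622, 431 and 300 CPM against 569, 280 and 125, and H2-DMb1 and H2-DMb2 differed in direction between facilities.

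The share of classical cells varied from library to library and did not follow the compartment. Aachen had 60.7% in cortex, 27.6% in OM and 25% in IM, and Bonn 42.2%, 36% and 33.3%. In Hamburg it ran the other way, with 29.0% in cortex, 40.9% in OM and 47.1% in IM.

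The first question of the design was whether monocytes are more frequent in 1 compartment. At Aachen they made up 2.01% of immune cells in cortex, 0.789% in OM and 1.54% in IM. The Bonn shares were 5.05%, 4.03% and 4.81%. Those of Hamburg were 2.82%, 6.27% and 4.96%. Exact 95% binomial intervals, which cover counting error only, ran from 0.529% to 1.13% for the lowest and from 5.35% to 7.31% for the highest library.

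**Figure D3:**
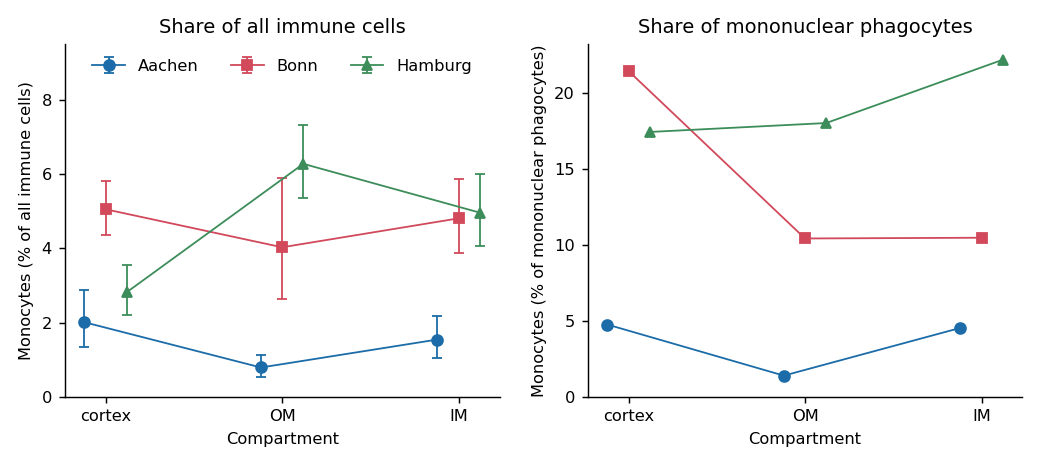
Monocytes as a percentage of all immune cells (left, with exact 95% binomial intervals) and of mononuclear phagocytes (right) in each compartment, 1 line per facility. The compartments cross: cortex has the highest share in Aachen and Bonn and the lowest in Hamburg.

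The mean shares of 3.29 ± 1.58% in cortex, 3.70 ± 2.76% in OM and 3.77 ± 1.93% in IM (SD, n = 3) differed less than the facilities did. The mean of OM and IM was 0.441 percentage points above cortex, higher in 1 facility and lower in 2 (exact permutation test within facilities, two-sided, p = 0.741, with 0.037 the smallest p that the 27 arrangements allow). Without Hamburg the difference was -0.738 points. The sorted suspension sets these shares, and more monocytes cannot be told apart from fewer other immune cells.

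Among mononuclear phagocytes (monocytes, resident macrophages, cDC1 and cDC2) the Aachen shares were 4.75% in cortex, 1.39% in OM and 4.53% in IM. Bonn had 21.4%, 10.4% and 10.5%, and Hamburg 17.4%, 18.0% and 22.2%. The difference of medulla from cortex was -3.37 points (exact permutation test, p = 0.370), lower in 2 facilities and higher in 1. Without Bonn the difference was 0.439 points.

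At 500 UMIs per cell, the share of monocytes with an Fcgr4 UMI was above cortex in all 6 medullary libraries, but the difference did not pass its test. The shares in cortex were 0%, 4.86% and 4.35% in Aachen, Bonn and Hamburg, those in OM 7.14%, 16% and 9.74%, and those in IM 10%, 5.56% and 6.86%, beside 0.195% of T and B cells. The difference was 6.15 points (exact permutation test, p = 0.0741). At 1000 UMIs it was 6.01 points (exact permutation test, p = 0.407), and Hamburg cortex, at 15.6%, was then above its OM at 10.96% and its IM at 11.5%. Unthinned, the shares ran from 3.57% to 40% with a difference of 9.12 points (exact permutation test, p = 0.148). In the edgeR test of monocytes between compartments below, Fcgr4 had a log2 fold change of 0.64 ± 0.22 (SE) and an adjusted p of 0.572.

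Ly6c2 pointed the other way. It was found in 11.1%, 21.6% and 23.2% of cortical monocytes, 10.7%, 8% and 17.5% in OM and 6.67%, 15.6% and 25.5% in IM, for a difference of -4.65 points (exact permutation test, p = 0.222). T and B cells had 11.02%, and T cells express Ly6c2 themselves, so that share is no measure of free RNA. Unthinned, the shares ran from 27.6% to 53.0% with a difference of -7.25 points, and at 1000 UMIs per cell the difference was 1.32 points.

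The second question was which genes of monocytes differ between compartments. Summed UMIs of the 9 libraries were compared with edgeR, with the facility as a block, over 5455 genes. Medulla against cortex (the mean of OM and IM) gave 17 genes at an adjusted p under 0.05, which is 0.312% of those tested, 5 higher (0.0917%) and 12 lower (0.22%) in medulla. At an unadjusted p under 0.05 stood 210 genes (3.85%), fewer than the 5% that such a threshold passes when nothing differs.

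The number of calls depended on the tool. DESeq2 called 1 gene, Cxcl10, and 49 at an unadjusted p under 0.05. The bias-adjusted quasi-dispersions of edgeR, an option tried after the data were seen, called 2, Cxcl10 and Ifi205. Without Hamburg 3 genes passed, without Hamburg cortex alone 6, without Aachen 6 and with only the 511 monocytes that held under 2 lymphocyte UMIs 8, of which 5 were among the 17. Leaving out Bonn gave 25 genes, Aachen cortex 27, Bonn OM 26, and Aachen OM or Hamburg OM 11 each. Of the 17 genes, 11 moved in the same direction in every facility, and 10 of these are described here in CPM after TMM scaling.

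**Figure D4:**
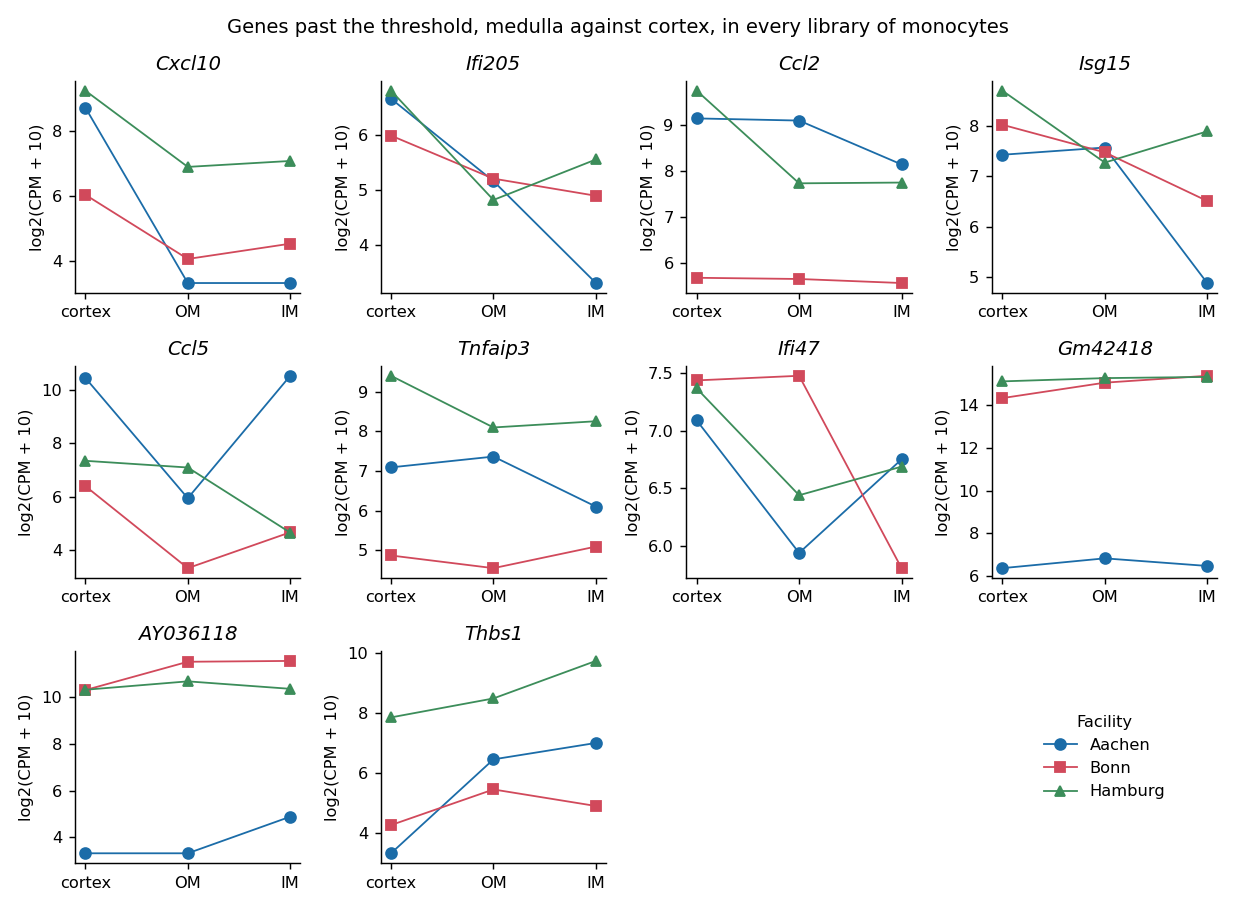
Level of 10 genes that passed the edgeR test for medulla against cortex with the same direction in every facility, as log2(CPM + 10) (y axis) in monocytes of each compartment (x axis), 1 line per facility. Cxcl10 falls from cortex to OM and IM at all 3 facilities, and the facility levels of Gm42418 and AY036118 lie far apart.

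Cxcl10, Ccl2, Isg15, Ifi205, Tnfaip3, Ccl5 and Ifi47 were lower in medulla. Cxcl10 (chr5:92346638-92348889, GRCm38.p6, the build mm10) was at 415, 55.9 and 599 CPM in cortex of Aachen, Bonn and Hamburg. It was at 0, 6.72 and 109 in OM and at 0, 13.2 and 126 in IM. Every facility's cortex library was above both its medullary libraries, with a log2 fold change of -2.53 ± 0.23 (SE, edgeR adjusted p = 1.03e-16).

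Few cells carried Cxcl10. A UMI was found in 52 monocytes, among them 2 of Aachen cortex, 1 of Bonn OM and 3 of Bonn IM, and 26.5% of all its UMIs came from 1 cell. Without the highest cell of each library the log2 fold change was -2.42. It passed in 20 of the 21 alternatives that gave it a value, with log2 fold changes from -3.37 to -2.34, and it was filtered out as too low without Hamburg and at 500 UMIs per cell.

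Ccl2, the ligand of CCR2 that recruits classical monocytes, was at 559, 41.2 and 855 CPM in cortex of the 3 facilities, at 541, 40.3 and 203 in OM and at 274, 37.3 and 206 in IM. The fall lay mostly in Hamburg. Its log2 fold change was -1.39 ± 0.20 (SE, edgeR adjusted p = 5.01e-07), and -0.23 without Hamburg, where the call was lost.

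Isg15 was at 162, 250 and 406 CPM in cortex, 180, 168 and 145 in OM and 19.6, 81.2 and 228 in IM. The Aachen OM library was above its cortex. The log2 fold change was -1.15 ± 0.20 (SE, edgeR adjusted p = 4.10e-05), with 724 UMIs in 176 cells behind it. Ifi205, an interferon-induced protein of the AIM2-like family, was at 90.1, 53.1 and 101 CPM in cortex, 25.7, 26.9 and 18.3 in OM and 0, 19.8 and 36.8 in IM, with no overlap between the cortical libraries and the others. Its log2 fold change was -1.80 ± 0.34 (SE, edgeR adjusted p = 0.000349).

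Tnfaip3, Ccl5 and Ifi47 were lower with smaller or less even falls. Tnfaip3, an inhibitor of NF-kB signalling, was at 126, 19.2 and 664 CPM in cortex and 13.4 to 295 in medulla (log2 fold change -0.99), with -0.02 without Hamburg, -0.04 without Hamburg cortex and -0.24 without cells holding lymphocyte UMIs. Ccl5, a chemokine that T and NK cells make in large amounts, was at 1388, 74.2 and 152 CPM in cortex, but Aachen IM had 1466 (log2 fold change -1.14), and 17.3% of its UMIs came from 1 of 37 cells. Ifi47, an interferon-induced GTPase, was at 126 to 163 CPM in cortex, 51.5 to 168 in OM and 46.1 to 97.8 in IM (log2 fold change -0.91).

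Higher in medulla were Thbs1 and a pair of transcripts of uncertain counting. Thbs1, thrombospondin-1, was at 0, 9.16 and 220 CPM in cortex, 77.2, 33.6 and 345 in OM and 117, 19.8 and 834 in IM. Each medullary library was above the cortex of its facility, with a log2 fold change of 1.32 ± 0.25 (SE, edgeR adjusted p = 0.000375). The Aachen and Bonn levels rested on 0 to 5 cells per library.

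Gm42418 and AY036118 overlap ribosomal RNA sequence, so their counts are uncertain. They followed the facility more than the compartment: Gm42418 was at 72.1 to 103 CPM in Aachen and 20725 to 42848 in Bonn and Hamburg, and AY036118 at 0 to 19.6 against 1247 to 2969. Their log2 fold changes were 0.51 and 0.71, and 0.21 and 0.23 without Bonn.

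The other 6 calls did not move in 1 direction. Gdf15, Rasgef1b, Phlda1 and Irf7 were lower by the fit, and the immunoglobulin light chain segments Igkv1-135 and Igkv6-23, products of B-lineage cells, were lower and higher. Igkv1-135 was found in 8 monocytes, with 34.0% of its UMIs in 1 cell. B cell genes summed to 0.696 to 7.77 UMIs per 10000 in the same libraries, and their part in these calls was not tested.

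Few members of the list of 16 interferon-response genes passed. Of the 13 tested, 0 rose and 2 fell (Isg15 and Irf7, log2 fold changes -1.15 and -0.71), beside 0.0917% and 0.22% of all tested genes. An unadjusted p under 0.05 was found for 10, beside 3.85% of all tested genes, and all 13 had a negative log2 fold change, with a median of -0.71 beside -0.01 over all genes. Ifit1, Ifit2 and Ifit3, proteins that bind foreign RNA, had log2 fold changes of -1.31, -1.35 and -1.14 without passing (edgeR adjusted p = 0.911, 0.177 and 0.0543). The most abundant member, Ifitm3, which restricts viral entry, had -0.04 at 4407 to 5894 CPM. These genes are induced together, so the members are not independent.

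Summed per library, the list was at 57.7, 62.0 and 50.5 UMIs per 10000 in cortex, OM and IM of Aachen. The Bonn sums were 70.3, 59.3 and 56.4, and those of Hamburg 64.0, 56.1 and 63.0. Of the 6 medullary libraries 5 were below their cortex. Most of each sum was Ifitm3, so these sums say little about the less abundant members. In Aachen, Bonn and Hamburg it was at 5336, 5789 and 5407 CPM in the classical range, with list sums of 65.3, 79.2 and 76.2. In the nonclassical range it was at 4226, 4303 and 3432 CPM, with list sums of 48.4, 52.0 and 41.4. Interferon genes were also higher in the classical range, whose share differed between libraries. Within the classical range the list sum of medulla differed from cortex by 18.8 per 10000 in Aachen, -10.5 in Bonn and -22.6 in Hamburg. Within the nonclassical range it differed by -8.18, -10.9 and 1.75. In either range 4 of 6 medullary libraries were below cortex, and 1 facility went the other way in each. With facilities pooled, Isg15 was at 466 CPM in cortex and 237 in medulla in the classical range, and at 101 and 47.4 in the nonclassical. Irf7 was at 442 and 303 CPM in the classical range, and at 176 and 121 in the nonclassical. Both were picked for their fall, and the mix of facilities in these pools differs between compartments.

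A pair of motifs was searched on both strands in the RefSeq promoter windows (250 bases before to 50 after the start, GRCm38.p6). The core of the interferon-stimulated response element (ISRE), GAAA, any 2 bases and GAAA again, was in 3.44% of 32851 windows and in 4.89% of the 4337 tested genes with a window. It was in 6 of the 9 tested interferon-list genes with a window. Irf7, which fell, had 0 matches, and Ifitm3, which hardly changed, had 2. Whether the motif has a part in the differences was not tested. The other, GGGA, any 3 bases and TCC, which resembles the NF-kB consensus, was in 4.59% of windows, 6.53% of tested genes and 2 of the 9. The windows of Cxcl10 and Isg15, both lower in medulla and both with an ISRE match, are shown 5′ to 3′ on the gene's strand, with the ISRE matches in capitals. Cxcl10 (chr5:92348840-92349139, minus strand) had 1 ISRE match and Isg15 (chr4:156200769-156201068, minus strand) 3 overlapping ones. The Cxcl10 window also holds a match of the other motif, which is not marked.
Cxcl10: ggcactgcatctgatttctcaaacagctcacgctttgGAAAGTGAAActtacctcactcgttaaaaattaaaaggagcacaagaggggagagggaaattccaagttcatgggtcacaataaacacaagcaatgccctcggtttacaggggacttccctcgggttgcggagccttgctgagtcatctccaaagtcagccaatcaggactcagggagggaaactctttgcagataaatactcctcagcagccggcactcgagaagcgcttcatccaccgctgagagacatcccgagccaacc
Isg15: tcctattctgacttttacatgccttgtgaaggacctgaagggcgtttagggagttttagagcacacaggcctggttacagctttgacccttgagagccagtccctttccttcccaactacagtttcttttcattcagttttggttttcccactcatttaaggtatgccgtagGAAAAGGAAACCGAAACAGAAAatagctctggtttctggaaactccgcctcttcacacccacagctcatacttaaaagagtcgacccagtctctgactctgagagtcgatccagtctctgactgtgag

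In other lists few or no genes passed edgeR for medulla against cortex. Among the 13 classical genes 0 passed (2 at an unadjusted p under 0.05, median log2 fold change 0.10), and among the 15 nonclassical genes 0 (1, median 0.11). Likewise 0 passed of 17 general monocyte genes (0 at an unadjusted p under 0.05), 15 tested trafficking genes (1), 8 MHC class II genes (0), 13 immediate early genes (0), 6 heat shock genes (1) and 5 tested osmotic response genes (1). DESeq2 called Cxcl10 alone among all genes. Of the classical genes, Cd14, the lipopolysaccharide co-receptor, came nearest (log2 fold change 0.67, edgeR adjusted p = 0.0950). Of 11 chemokine and cytokine genes tested 2 fell, Ccl2 and Cxcl10, beside 0.22% of all tested genes. An unadjusted p under 0.05 was found for 5 of the 11, beside 3.85% of all tested genes, and 2 of the 11 had a positive log2 fold change. Cxcl2 had -0.58 (edgeR adjusted p = 0.325), while Ccl3, Ccl4, Ccl6, Ccl9 and Il1b had log2 fold changes between -0.07 and 0.19. Tnf had -0.79 (edgeR adjusted p = 0.177). Among transcription factor genes Irf7 fell, while Spi1, Cebpb, Klf4, Nr4a1, Irf8 and Zeb2 were between -0.12 and 0.15.

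OM against cortex gave 13 genes (0.238% of those tested), 2 higher (0.0367%) and 11 lower (0.202%), with 194 (3.56%) at an unadjusted p under 0.05. Cxcl10 (log2 fold change -2.63), Ifi205 (-2.09) and Ccl2 (-1.34) were lower in every facility, but for Ccl2 the OM and cortex of Aachen (541 and 559 CPM) and of Bonn (40.3 and 41.2) were nearly level, and its log2 fold change was 0.091 without Hamburg. Igkv1-135, found in 8 monocytes, ranked next after Cxcl10 by p (edgeR adjusted p = 1.36e-09). It and Gdf15 (edgeR adjusted p = 0.00115) were lower by the fit without a fall in every facility. Hspb1, a small heat shock protein, and AY036118 were higher. Hspb1 was at 82.7 and 267 CPM in Hamburg cortex and OM and hardly differed in Aachen (252 and 257) or Bonn (0 and 0). Ifit2 (-2.15) and Cxcl2 (-0.94) passed near the threshold (edgeR adjusted p = 0.0475 each) without a fall in every facility. DESeq2 called 0 genes and had 54 at an unadjusted p under 0.05. The edgeR count fell to 1 without Hamburg, 3 without Aachen, 4 without Hamburg cortex, 5 without Aachen IM, 7 without Aachen OM and 8 without Hamburg OM, and was 19 to 23 without Bonn, any 1 of its libraries, Aachen cortex or Hamburg IM.

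IM against cortex gave 11 genes (0.202%), 4 higher (0.0733%) and 7 lower (0.128%), with 183 (3.35%) at an unadjusted p under 0.05, and DESeq2 gave 0 and 53. Thbs1 had its largest change here, with a log2 fold change of 1.86 ± 0.27 (SE, edgeR adjusted p = 6.14e-07). Cxcl10 (-2.43), Ccl2 (-1.43), Isg15 (-1.18), Ifi47 (-1.12) and Mmp12, a macrophage elastase (-3.04, 27 cells with a UMI), were lower in every facility, and Gm42418 was higher (0.60). Cd14 (0.82) and Igkv6-23 were higher and Gdf15 lower without the same direction in every facility. C1qb was lower (-0.76), at 811, 791 and 248 CPM in cortex against 547, 483 and 126 in IM. Its log2 fold change was 0.052 in the 636 monocytes with under 2 C1q UMIs. That filter takes out C1qb UMIs themselves, so this value is no check of the call. The count was 1 without Hamburg, 5 without Aachen, 6 without Aachen OM, 7 without Hamburg cortex, 19 without Bonn OM and 20 without Bonn. OM and IM share the cortical libraries, so their lists are not separate evidence.

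OM against IM gave 5 genes (0.0917%), 4 higher (0.0733%) and 1 lower (0.0183%) in OM, with 153 (2.8%) at an unadjusted p under 0.05, and DESeq2 gave 0 and 44. C1qb (log2 fold change 0.84) and C1qc (0.91), subunits of complement C1q, were higher in OM in every facility. C1qc was at 1030, 564 and 153 CPM in OM and 371, 312 and 104 in IM. The share of monocytes with a C1qa UMI at 500 UMIs was 14.3%, 12% and 5.19% in OM and 6.67%, 7.78% and 6.86% in IM, and whether macrophage RNA lay behind the C1q genes was not tested. The rest were Igkv1-135, Hspb1 and the neutrophil alarmin S100a9, of whose UMIs 43.6% came from 1 cell. Thbs1, Zfp36, Ifrd1, Cd209a and Tmem65 had the next smallest p-values and did not pass (edgeR adjusted p from 0.0646 to 0.263). The count was 0 without Aachen, Aachen OM, Aachen IM or Hamburg cortex, 2 without Hamburg, Bonn cortex or Bonn IM, 8 without Aachen cortex, 11 without Bonn OM, 12 without Hamburg OM and 25 without Hamburg IM.

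The last question was whether monocytes and their neighbours differ between compartments in the same way. An interaction test asked for each gene whether the medulla effect differed between monocytes and resident macrophages of the same libraries. It called 62 of 8562 genes (0.724%), 34 (0.397%) with the more positive effect in monocytes and 28 (0.327%) with the more negative, with 520 (6.07%) at an unadjusted p under 0.05. DESeq2 called 0, with 139 at an unadjusted p under 0.05, and the bias-adjusted edgeR fit 27. The edgeR count was 57 without Aachen, 38 without Hamburg and 10 without Bonn.

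**Figure D5:**
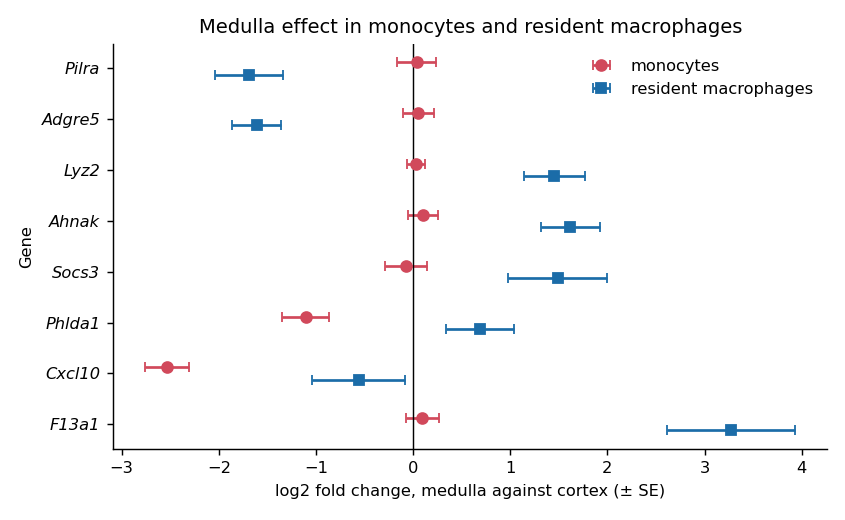
Log2 fold change of medulla against cortex with its SE (x axis) for the 8 genes with the smallest interaction p, in monocytes (circles) and resident macrophages (squares). Lyz2, F13a1, Ahnak, Adgre5 and Pilra lie near 0 in monocytes and away from 0 in macrophages, Cxcl10 lies lowest in monocytes, and Phlda1 has opposite signs.

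Lyz2 led, with a difference of -1.32 ± 0.13 (log2, SE, edgeR adjusted p = 6.17e-19). In monocytes it was level, at 20142, 26075 and 16565 CPM in cortex of Aachen, Bonn and Hamburg, 22002, 22263 and 18533 in OM and 19530, 25752 and 19740 in IM. In resident macrophages it was at 2732, 3304 and 3128 CPM in cortex, 13958, 8812 and 6922 in OM and 3090, 11425 and 6881 in IM. The macrophage levels of cortex and medulla did not overlap in Bonn and Hamburg, and Aachen IM stayed near its cortex. The class sums 4 clusters whose mix differed by compartment. Macrophage_3, the one with the most Lyz2 (a mean of 13129 CPM against 5039 to 5450 in the other 3), held 0%, 7.05% and 0% of resident macrophages in cortex of Aachen, Bonn and Hamburg. It held 44.7%, 42.9% and 23.0% in OM and 1.17%, 43.1% and 15.4% in IM. Within Macrophage_1 alone Lyz2 was at 2378, 1720 and 2272 CPM in cortex, 10506, 7288 and 5031 in OM and 2969, 10801 and 5188 in IM, above cortex in all 6 medullary libraries. The part of the mix in Lyz2 or in the other genes of this comparison was not tested.

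F13a1 and Ahnak were also level in monocytes and higher in medullary macrophages (edgeR adjusted p in macrophages 0.0267 and 0.0184). F13a1 was at 66.4 to 631 CPM in monocytes with a log2 fold change of 0.10 ± 0.17, and at 0 to 2.71 CPM in cortical and 0 to 22.2 CPM in medullary macrophages (3.27 ± 0.66). Ahnak, a large scaffold protein, had log2 fold changes of 0.10 in monocytes and 1.62 in macrophages. Socs3, a brake on cytokine signalling, had -0.07 and 1.49, of which the latter did not pass by itself (edgeR adjusted p = 0.240). Its Aachen levels did not follow these values, at 220, 46.4 and 0 CPM in monocytes of cortex, OM and IM and at 54.1, 127 and 38.3 in macrophages.

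Adgre5 (CD97, an adhesion receptor) and Pilra, an inhibitory receptor, were lower in medullary macrophages (log2 fold changes -1.61 and -1.69) with 0.05 and 0.04 in monocytes. Adgre5 was at 409, 560 and 647 CPM in cortical monocytes and 232 to 808 in medullary ones, against 66.0, 143 and 123 CPM in cortical and 10.6 to 72.9 in medullary macrophages. Cxcl10 had -2.53 in monocytes and -0.56 in macrophages, and Phlda1 had -1.11 and 0.69. The macrophage changes of Cxcl10 and Phlda1 did not pass (edgeR adjusted p = 0.801 and 0.539). Of the given monocyte markers, Ccr2, Plac8 and Fcgr4 were among the 34 genes (0.397%) with the more positive effect in monocytes. Their differences were 1.08, 0.93 and 0.92 (edgeR adjusted p = 2.94e-05, 0.0040 and 0.030). By themselves their changes passed in neither class. Plac8 also passed against cDC2 (0.83, edgeR adjusted p = 0.00265).

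Lists taken from the compartment differences of resident macrophages in earlier results on these data held no call in monocytes for medulla against cortex. Of the 18 genes higher in medullary macrophages 8 were tested and 0 passed edgeR (2 at an unadjusted p under 0.05, median log2 fold change 0.22). Of the 20 higher in cortical ones 13 were tested and 0 passed (4 at an unadjusted p under 0.05, median -0.35). Against cortex, 1 of these 13 was called lower in OM and 1 in IM, beside 0.202% and 0.128% of all tested genes. These lists were chosen on these samples and are not independent evidence.

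Against cDC2 the interaction test called 22 of 5990 genes (0.367%), 7 (0.117%) more positive and 15 (0.25%) more negative in monocytes, with 255 (4.26%) at an unadjusted p under 0.05 (DESeq2 0 and 66). Cxcl10 again led with -2.77 ± 0.36 (log2, SE, edgeR adjusted p = 5.92e-11): its mean was 331, 38.7 and 45.7 CPM in cortex, OM and IM of monocytes and 68.7, 65.7 and 56.5 in cDC2. Mmp12 (-3.83), Id3 (-2.52), Phlda1 (-1.94), Ccl5 (-1.20), Dnajb1 (-1.004) and Hspa1a (-0.67) also had the more negative effect in monocytes. Without the Hamburg libraries 0 genes passed edgeR in this comparison, with 81 at an unadjusted p under 0.05, and without Bonn 12 passed.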

How the data were processed

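The authors aligned the 10x reads to mm10 with Cell Ranger. Cells below 200 or above 4000 detected genes, or above 20% mitochondrial UMIs, had been dropped, and clustering and naming of the 23 clusters were done in Seurat, per the study's methods. The deposited table is labelled as raw counts and holds estimated counts (UMIs) of 32886 genes in 20266 cells, with cluster, compartment and facility. Whether the Hamburg values had been adjusted is not stated in the sources used here. UMIs of the monocytes, resident macrophages (Macrophage_1, Macrophage_2, Macrophage_3 and Isg+_Macrophage) and cDC2 were summed per compartment and facility and rounded to whole numbers (the Hamburg values are not whole). The compartment and interaction tests used edgeR 4.0.16 (R 4.3.3) with TMM, filterByExpr, the quasi-likelihood test, the facility (interactions: the library) as a block and Benjamini-Hochberg adjustment over all genes tested at 0.05. Same-facility libraries deviated together (Pearson 0.498 to 0.604 over 9 pairs), and the facility name in the table gives the pairing. Shares were compared by exact permutation within facilities. On simulated counts for medulla against cortex (5169 genes) edgeR recovered 57% of 2-fold and 77% of 4-fold changes with 1 false call and DESeq2 1.42.0 29% and 75%. The bias-adjusted edgeR fit recovered 55% and 77%. These counts were drawn from the fitted means and spread, without single cells of high UMIs, so they do not measure false calls in the data.

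Named genes were those past the threshold with the same direction in every facility, up to 12 each way by log2 fold change (where under 5 passed, the 5 smallest p in each direction), the 8 smallest p of each interaction, the 20 largest ratios over macrophages and cDC2, and list members. Some items are not reported here. Other genes were named after their values were seen. The members and lists were chosen with earlier results of these data known. Alternatives covered DESeq2, its size factors, no filter, no block, thinning to 500 UMIs, removal of cells with 2 or more lymphocyte or C1q UMIs, and each library and facility left out. Sequences and positions are from RefSeq, GRCm38.p6, which is the build mm10.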

Additional observations from a re-analysis of the deposited data

Results flagged for a closer look

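In 15 results the effect of medulla against cortex differed between monocytes and another class by the interaction term of edgeR (differences on the log2 scale, from the 8 smallest adjusted p-values of each of 2 comparisons). Against resident macrophages the difference was -1.91 for Cxcl10, 1.67 for Pilra, -1.91 for Phlda1, -1.32 for Lyz2, 1.58 for Adgre5, -1.63 for Socs3, -3.30 for F13a1 and -1.48 for Ahnak. Against cDC2 it was -2.52 for Id3, -2.77 for Cxcl10, -1.94 for Phlda1, -1.004 for Dnajb1, -3.83 for Mmp12, -1.20 for Ccl5 and -0.67 for Hspa1a. Cxcl10 and Phlda1 occur in both comparisons, which share the monocyte libraries.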

How the results depend on the processing

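Counts of called genes are given in the order medulla, OM and IM against cortex, OM against IM, then the differences from resident macrophages and from cDC2, which stood at 17, 13, 11, 5, 62 and 22. DESeq2 gave 1, 0, 0, 0, 0 and 0. The bias-adjusted quasi-dispersions of edgeR, added after the data were seen, gave 2, 1, 2, 0, 27 and 5, and with robust estimation 3, 1, 2, 0, 26 and 7. Cells thinned to 500 UMIs gave 1, 0, 1, 0, 10 and 0, with 626 genes left to test for the compartments. Without monocytes holding lymphocyte UMIs the counts were 8, 5, 5, 0, 38 and 14, and without those holding C1q UMIs 7, 6 and 3 for OM, IM and OM against IM. No filter on low counts gave 32, 29, 26 and 11 for the compartments. Without the facility block 0, 0, 0 and 0 genes passed (22, 14, 17 and 14 at an unadjusted p under 0.05). Leaving out a library or a facility gave 3 to 27, 1 to 23, 1 to 20, 0 to 25, 10 to 57 and 0 to 15.

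The difference in the share of immune cells was -0.026 as a log2 ratio and ran from -0.738 to 1.08 points with a facility left out, that of phagocytes from -6.39 to 0.439, the Fcgr4 share from 4.93 to 7.24 and the Ly6c2 share from -6.13 to -2.05, with 1.32 at 1000 UMIs. Single genes that turned direction when a library or facility was left out were, with their lowest and highest log2 value, Ccl2 (OM against cortex, -1.73 to 0.091, positive without Hamburg), Gdf15 (OM, -6.24 to 1.49, positive without Hamburg cortex), Igkv6-23 (OM, -4.91 to 8.01, negative without Hamburg OM), Hspb1 (OM against IM, -0.14 to 2.90, negative without Hamburg), Cd209a (OM against IM, -0.012 to 1.90) and Thbs1 (OM against IM, -1.24 to 0.16), both turned without Hamburg OM. C1qb (IM against cortex) was at 0.052 without C1q-bearing cells, a filter that acts on C1qb itself. Hspb1 (OM against IM) was at -0.029 with DESeq2 and Ccl5 (against cDC2) at 0.35 at 500 UMIs. The cause was not tested. No library held under 20 monocytes (0 of 9), so leaving such libraries out changes nothing. The depth of the Aachen libraries limits low genes: 3 counts there are 47.2 to 69.6 CPM.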
